A study of Arabis alpina with 9 samples.

Results

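Transcripts of 4 genes of leaf carbon metabolism and light capture were followed through the RNA sequencing of the eop089 mutant of Arabis alpina, a perennial relative of Arabidopsis thaliana. They are CA1 (Aa_G593160, Arabidopsis code AT3G01500), CA2 (Aa_G7910, AT5G14740), CAT2 (Aa_G180310, AT4G35090) and LHCB2.1 (Aa_G211280, AT2G05100). They were found by their Arabidopsis codes in the 6 tables of mutant against control that the authors deposited, and each code matched 1 Arabis gene with 1 entry in the count table. They are 4 of 34220 counted gene entries and of 1487 genes in those tables. The mutant samples were the leaf at 5 weeks (the fifth and sixth leaf), the dissected shoot apex at 5 weeks and the dissected shoot apex at 3 weeks, each with 3 libraries. All 9 libraries came from long-day-grown eop089 plants in the Pajares accession, and the labels give this line by name only, with no allele. The control enters only through the authors' fold changes, and control libraries were not analysed here. The study concerns how AaTFL1, the Arabis counterpart of the floral repressor TFL1, acts in flowering.

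Carbonic anhydrases interconvert carbon dioxide and bicarbonate. In Arabidopsis CA1 is the abundant beta-type enzyme of the chloroplast stroma and acts with a related enzyme in the response of stomata to carbon dioxide, whereas CA2 is a beta-type enzyme placed in the cytoplasm. Catalase breaks down hydrogen peroxide, and CAT2 is the Arabidopsis catalase that clears the peroxide formed in peroxisomes during photorespiration. LHCB2.1 encodes a subunit of the light-harvesting complex of photosystem II, the chlorophyll-binding antenna of the thylakoid, and belongs to a family of very similar genes whose transcripts follow light and the circadian clock in Arabidopsis.

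Libraries held between 11859813 and 13382460 counts in genes. The labels do not state whether the replicates were separate plants or pools. The p-values therefore cover the spread among these samples alone, and that spread may be technical. Levels are given as CPM, counts scaled to the library size after TMM normalisation, and were not divided by gene length, so levels of different genes are not compared. In bulk tissue, fewer cells of a type and less RNA per cell cannot be told apart. No code of the 7 shoot meristem markers looked for, STM among them, was paired with an Arabis gene in the deposited tables, so the apex label was not checked against them.

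In the authors' comparison with the control, the 3 genes for carbonic anhydrase and catalase were listed higher in the mutant at the 3-week apex, and LHCB2.1 was on the list of lower genes of the 5-week apex. The authors' deposited table puts CA1 at 2.44 times the control, on a mutant mean of 249.37 normalised counts (adjusted p of 1.38e-11). For CA2 the authors' deposited table gives 2.01 times the control and a mutant mean of 76.55 (adjusted p of 0.00415). That fold lies at the edge of the table, whose smallest entry is 2.0. CAT2 had the largest fold of the 4 genes, 4.4, on the smallest mutant mean, 15.08 normalised counts (authors' deposited table, adjusted p of 0.0321). For LHCB2.1 the authors' deposited table gives 0.492 times the control and a mutant mean of 3982.3 (adjusted p of 6.5e-22). Of all counted entries, the 3-week apex tables held 0.707% as higher and 0.248% as lower, and those of the 5-week apex held 0.193% as higher and 0.146% as lower. None of the 4 genes was among the leaf entries of the authors' deposited table. Listing chose these genes, so nothing is read from their number, and whether a gene's change differed between the settings was not tested.

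In the mutant, CA1 was a leaf transcript, lower at the 3-week apex and lowest at the 5-week apex. Its level was 8950, 8617 and 8475 CPM in the leaf libraries, 0.322, 0.334 and 0.991 CPM at the 5-week apex, and 32.4, 4.90 and 13.6 CPM at the 3-week apex. The 3 groups did not overlap. The leaf libraries lay close together while the 3-week apex libraries were spread over a ratio of highest to lowest of 6.60, with replicate 1 on top. The 5-week apex values rest on 5, 5 and 15 counts, for which exact Poisson intervals (95%) run from 1.62 to 11.7 and, for the library with 15, from 8.40 to 24.7. Such intervals cover counting error only. In each leaf library CA1 took between 0.588% and 0.622% of all gene counts.

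CA1 was 15573-fold higher in the leaf than at the 5-week apex, averaging 8681 ± 244 and 0.549 ± 0.383 CPM (SD, n = 3 each). On the log2 scale this is 13.93 (SE 0.60; adjusted p = 1.66e-12), by the quasi-likelihood test of edgeR, with p-values adjusted after Benjamini and Hochberg across 20633 tested genes. Replicate 3 of the 5-week apex lowered the value, and without it the leaf was 25614-fold higher. The 5-week apex against the 3-week apex gave -4.93 (SE 0.67; edgeR adjusted p = 3.28e-05), with means of 0.549 ± 0.383 and 16.9 ± 14.0 CPM (SD, n = 3 each). Without replicate 1 of the 3-week apex the call held, at -4.06 (edgeR adjusted p = 1.87e-05), although the 3-week mean moved to 9.24 CPM. The 5-week apex was 30.5-fold lower with all libraries, 16.6-fold lower without that replicate and 50.4-fold lower without replicate 3 of the 5-week apex. The leaf was 510-fold above the 3-week apex (8.99, SE 0.45; edgeR adjusted p = 1.41e-11), and 933-fold without replicate 1 of the 3-week apex.

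CA2 followed the same order of groups over a narrower range. It had 1007, 978 and 1066 CPM in the leaf, 0.322, 0.400 and 0.859 CPM at the 5-week apex, and 7.89, 2.38 and 5.32 CPM at the 3-week apex. Again no groups overlapped, replicate 1 was the highest and replicate 2 the lowest at the 3-week apex, and replicate 3 was the highest at the 5-week apex. The leaf stood 1899-fold above the 5-week apex, with means of 1017 ± 44.7 and 0.527 ± 0.290 CPM (SD, n = 3 each; log2 fold change 10.89, SE 0.28; edgeR adjusted p = 3.47e-15). The 5-week apex was lower than the 3-week apex, at -3.29 on the log2 scale (SE 0.44; edgeR adjusted p = 2.64e-05), with means of 0.527 ± 0.290 and 5.20 ± 2.76 CPM (SD, n = 3 each). The leaf was 194-fold above the 3-week apex (7.60, SE 0.22; edgeR adjusted p = 1.45e-14).

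The ratio of the 2 carbonic anhydrase genes was highest in the leaf, and the test used could not decide with 3 libraries a group. There were 8.89, 8.81 and 7.95 CA1 counts for each CA2 count in the leaf libraries, 1.00, 0.833 and 1.15 at the 5-week apex, and 4.099, 2.06 and 2.55 at the 3-week apex. Gene length cancels when this ratio is compared between libraries. The ratios of the 3 groups did not overlap, but 3 libraries against 3 cannot reach a p under 0.1 in a two-sided exact permutation test, and each of the 3 pairs of groups gave that value (0.1 after Benjamini-Hochberg over the 3). At the 5-week apex the counts are few, and the exact interval of the ratio in replicate 1 runs from 0.230 to 4.345. The lowest leaf interval starts at 7.78, above every apex interval, of which the highest, in 3-week replicate 1, ends at 5.043. The interval of 5-week replicate 1 reaches into those of the 3-week apex, where replicate 2 has 1.355 to 3.175. These intervals cover counting error only.

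CAT2 was measured in the leaf and was at or near 0 in 5 of the 6 apex libraries. The leaf libraries had 710, 685 and 627 CPM, from 6431, 6451 and 5621 counts. At the 5-week apex all 3 libraries had 0 counts, which allows up to 0.193, 0.200 and 0.198 CPM at 3 counts per library. At the 3-week apex replicate 1 had 42 counts (2.74 CPM), against 2 counts (0.136 CPM) in replicate 2 and 3 counts (0.200 CPM) in replicate 3. One library therefore carried 42 of the 47 counts at this age. The exact Poisson interval of the 42 counts, 30.3 to 56.8, lies above those of the other libraries, which end at 7.23 and 8.77.

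Set against a limit of 3 counts over the 3 libraries of the 5-week apex, CAT2 was at least 10262-fold higher in the leaf (edgeR adjusted p = 9.45e-13). The 5-week apex was at least 15.9-fold lower than the 3-week apex on the same limit (edgeR adjusted p = 0.0109). Without replicate 1 of the 3-week apex that bound is only 2.56-fold, from 0 against 5 counts, and the edgeR adjusted p is 0.0162. That p-value draws on a spread moderated over all genes, and 5 counts are too few to settle the difference without replicate 1. The leaf against the 3-week apex gave 9.32 on the log2 scale (SE 0.33; edgeR adjusted p = 1.88e-12), with means of 674 ± 42.5 and 1.025 ± 1.485 CPM (SD, n = 3 each). Without the same replicate it was 11.88, a fold of 3775 in place of 641.

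LHCB2.1 differed from the other 3 genes in keeping a substantial apex level. It had 7747, 7475 and 7863 CPM in the leaf, 136, 423 and 322.5 CPM at the 5-week apex, and 268, 236 and 189 CPM at the 3-week apex. The leaf lay above every apex library, while the values of the 2 apex ages overlapped, with the lowest and the highest apex library both at 5 weeks. The leaf was 26.2-fold above the 5-week apex (log2 fold change 4.71, SE 0.30; edgeR adjusted p = 3.01e-10), with means of 7695 ± 199.5 and 294 ± 146 CPM (SD, n = 3 each). The leaf was 33.3-fold above the 3-week apex, which averaged 231 ± 39.4 CPM (SD, n = 3; log2 fold change 5.06, SE 0.31; edgeR adjusted p = 1.72e-10). Because copies of this family are nearly identical, reads of LHCB2.1 may have been lost to or gained from related genes, and the sources used here do not say how the authors' counting treated such reads.

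No difference of LHCB2.1 between the apex ages passed the test. The log2 fold change of the 5-week over the 3-week apex was 0.35 (SE 0.26, 95% interval -0.21 to 0.90; edgeR adjusted p = 0.307). This call rested on single libraries of the 5-week apex. Without replicate 1 the 5-week apex was higher, at 0.69 (edgeR adjusted p = 2.65e-04), and without replicate 2 the value was -0.01 (edgeR adjusted p = 0.98).

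**Figure D1:**
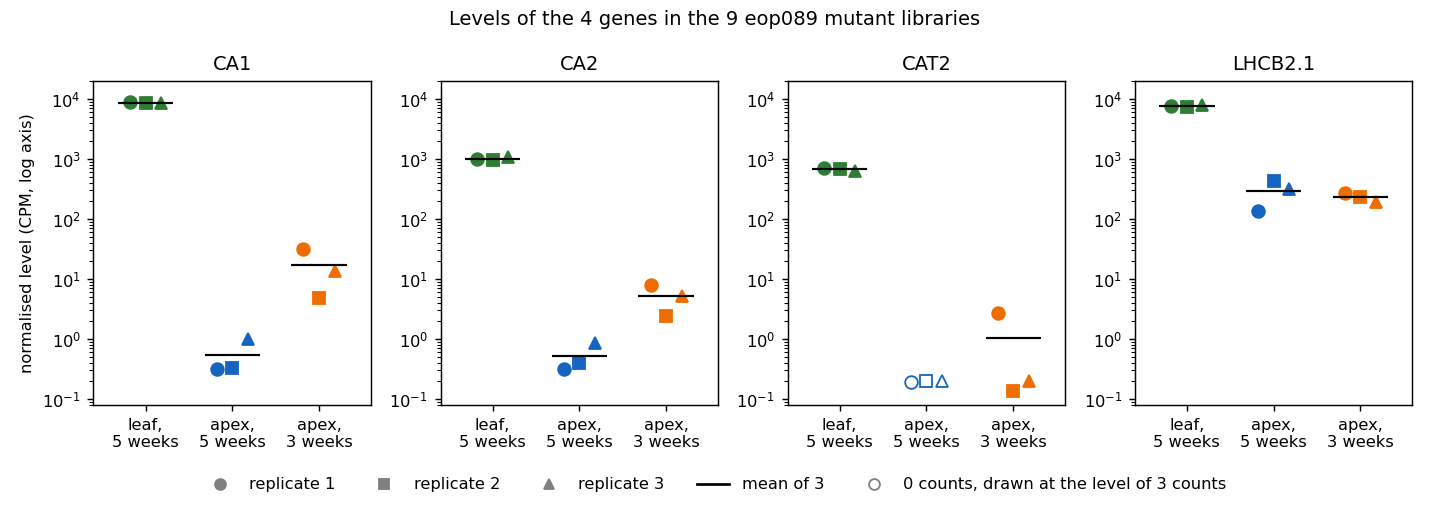
CPM on a log axis for CA1, CA2, CAT2 and LHCB2.1 in the 5-week leaf, 5-week apex and 3-week apex of the mutant; each symbol is 1 library, the bar is the mean of 3 and open symbols are libraries with 0 counts drawn at the level of 3 counts. The leaf libraries lie together at the top, and the apex libraries of CA1, CA2 and CAT2 lie far below them, with replicate 1 the highest at 3 weeks.

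All 4 genes passed the test as higher in the leaf than at the 5-week apex, where 37.1% of all tested genes were called higher and 42.0% lower, and all 4 as higher in the leaf than at the 3-week apex, where 36.6% were called higher and 38.3% lower. Between the apex ages CA1, CA2 and CAT2 passed as lower at 5 weeks, against 21.0% of all tested genes called lower and 19.1% called higher. Groups that did not overlap were found, in the leaf over the 5-week apex, for 37.4% of all tested genes as higher and 42.3% as lower. The shares were 38.2% and 40.4% in the leaf over the 3-week apex, and 25.9% and 26.1% in the 5-week over the 3-week apex. With CAT2 at its bound, the median log2 fold change of the 4 genes was 12.1 in the leaf over the 5-week apex, against -0.10 for all tested genes. It was -3.64 in the 5-week over the 3-week apex, against 0.01 for all. LHCB2.1 lay the other way there, at 0.35 (edgeR adjusted p = 0.307). In the leaf over the 3-week apex the median of the 4 genes was 8.30, against -0.03. The comparisons share libraries in pairs, so they are not independent of each other. The deposited tables that chose the genes were made with the same mutant libraries, and the higher level at 3 than at 5 weeks is not independent of the listing at 3 weeks.

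**Figure D2:**
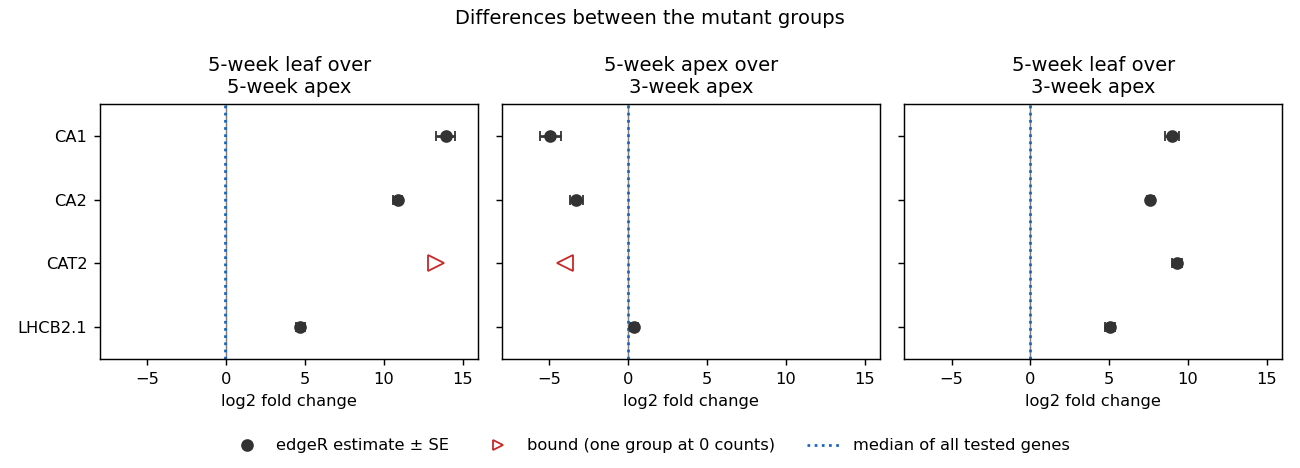
Log2 fold changes of the 4 genes in the 3 comparisons of mutant groups, with circles and bars for the edgeR estimate ± SE, open triangles for the bound where 1 group had 0 counts, and a dotted line for the median of all tested genes. The leaf comparisons lie to the right of that line for each gene, and between the apex ages CA1, CA2 and CAT2 lie to the left of it.

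Expressed against the leaf, the apex levels of CA1, CA2 and CAT2 were small fractions that varied between the 3-week libraries. At the 3-week apex CA1 reached 0.373%, 0.0565% and 0.156% of its mean leaf CPM in replicates 1, 2 and 3. CA2 reached 0.776%, 0.234% and 0.523%, and CAT2 0.406%, 0.0202% and 0.0296%. LHCB2.1 reached 3.48%, 3.07% and 2.46%. The first 3 genes shared the order of replicates 1, 3 and 2 from high to low, and replicate 1 stood at 3.504, 2.05 and 16.3 times the mean of the other libraries for CA1, CA2 and CAT2, against 1.26 for LHCB2.1. Over the 9 libraries, with group means taken off, the log2 CPM of CA1 and CA2 had a correlation of 0.98. It was 0.79 for CA1 and CAT2, 0.674 for CA2 and CAT2, and between 0.206 and 0.277 for each of the 3 with LHCB2.1 (described only, since the points share libraries).

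Replicate 1 was also the highest 3-week apex library for most, but not all, of a chosen set of other leaf transcripts. Apart from the 4 genes, 43 tested genes had at least 100 CPM in the leaf and at least 100 times their mean level at the 5-week apex, limits set after the values were seen and met also by CA1, CA2 and CAT2. Replicate 1 was the highest 3-week apex library for 30 of these 43 (69.8%), against 33.2% of all tested genes. Only 15 of the 43 (34.9%) had the order of replicates 1, 3 and 2 from high to low. Outside these limits, GLDP2 had 80.9, 76.2 and 79.9 CPM in 3-week replicates 1, 2 and 3, with replicate 1 narrowly on top. Replicate 1 was not the highest for ATWSCP (6.59, 5.31 and 6.85 CPM) or NYC1 (46.8, 48.1 and 47.5 CPM). The median level of the 43 genes was 1.43%, 0.910% and 1.14% of the leaf mean in 3-week replicates 1, 2 and 3. In the 5-week replicates it was 0.2845%, 0.3085% and 0.3915%. The limits kept the 5-week levels low by selection and left the 3-week levels free, so nothing is read from the gap between the ages. The summed level of the 43 genes was 471.5, 362.7 and 467.5 CPM at the 3-week apex, so replicate 3 was nearly as high as replicate 1. The median ratio of replicate 1 to the mean of the others was 1.45 for the 43 genes, below the ratios of CA1, CA2 and CAT2. The part of leaf tissue or of any other source in the 3-week values was not tested.

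**Figure D3:**
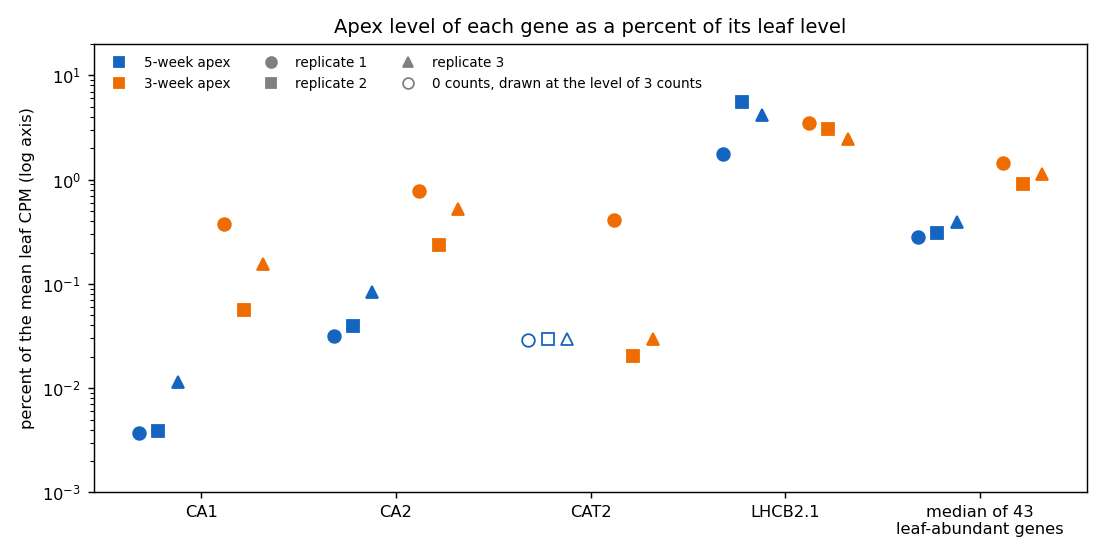
Level in each apex library as a percent of the mean leaf CPM, on a log axis, for the 4 genes and as the median of 43 other leaf-abundant genes; blue is the 5-week apex, orange the 3-week apex, the symbol gives the replicate and open symbols are 0 counts drawn at the level of 3 counts. Replicate 1 is on top at 3 weeks for each of the 5 columns, by the widest margin for CAT2. LHCB2.1 stays between 1.77% and 5.50% at both ages. The 43 genes were selected to be low at the 5-week apex, so the gap between the ages in that column is not read.

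The same library carried much of the authors' fold at the 3-week apex. Without replicate 1 the mutant mean kept 54.5% of its value for CA1, 74.1% for CA2 and 16.4% for CAT2. Multiplying the fold of the authors' deposited table by these shares gives 1.33 for CA1, 1.49 for CA2 and 0.720 for CAT2, in place of 2.44, 2.01 and 4.4. The CAT2 value without replicate 1 rests on 2 counts in replicate 2 and 3 counts in replicate 3. Its side of the control cannot be read from so few counts. Leaving out replicate 2 or 3 gives 6.31 or 6.17 for CAT2. For LHCB2.1 at the 5-week apex the scaled fold is 0.624, 0.384 and 0.468 without replicates 1, 2 and 3, against 0.492 in the authors' deposited table. These are arithmetic scalings with the control held as it is, and no test goes with them.

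**Figure D4:**
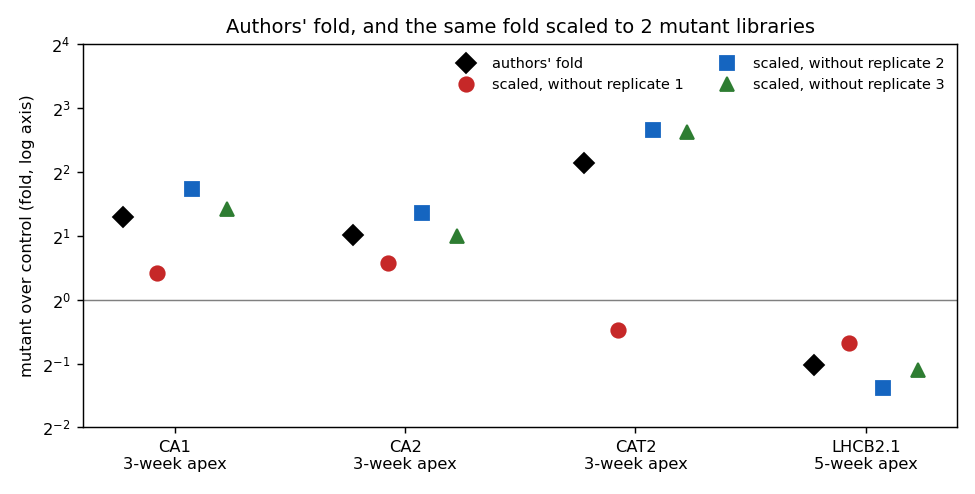
Mutant over control on a log axis for the 4 genes, at the age where each was listed; black diamonds are the authors' folds, and coloured symbols the same folds scaled to the mutant mean without 1 replicate. Without replicate 1 the 3-week values move to 1.33, 1.49 and 0.720, and LHCB2.1 stays below 1 throughout.

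In the 5-week apex libraries LHCB2.1 was set beside 4 evening genes of the circadian clock that the authors listed higher in the mutant. These clock genes were chosen after their values were seen. LHCB2.1 was at 0.464, 1.44 and 1.097 times its group mean in replicates 1, 2 and 3. ELF4, a member of the evening complex, was at 1.302, 0.614 and 1.08 times its mean. FKF1, a blue-light receptor of the photoperiod pathway, was at 1.47, 0.583 and 0.9475. LUX, the DNA-binding subunit of the evening complex, was at 1.18, 0.778 and 1.04, and BOA, its close relative, at 1.09, 0.649 and 1.26. Replicate 2 was thus the highest library for LHCB2.1 and the lowest for each of the 4 clock genes. Replicate 1 was the lowest for LHCB2.1 and the highest for ELF4, FKF1 and LUX but not BOA. Across genes, these 2 libraries were the least alike pair within any group (chi-square per degree of freedom 10.7, against 2.46 to 2.83 at the 3-week apex). The share of all tested genes with either order was not counted. At the 3-week apex LHCB2.1 was at 1.16, 1.02 and 0.8195 times its mean, and the pattern of 5 weeks was not found for every clock gene. ELF4 was at 1.115, 0.856 and 1.03, with replicate 1 the highest as for LHCB2.1. FKF1 was at 0.868, 1.01 and 1.13, in the opposite order to LHCB2.1. LUX at 0.982, 1.02 and 1.00 and BOA at 1.00, 0.969 and 1.03 varied little. The sources used here do not give the hour of harvest, and its part in the LHCB2.1 values was not tested.

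**Figure D5:**
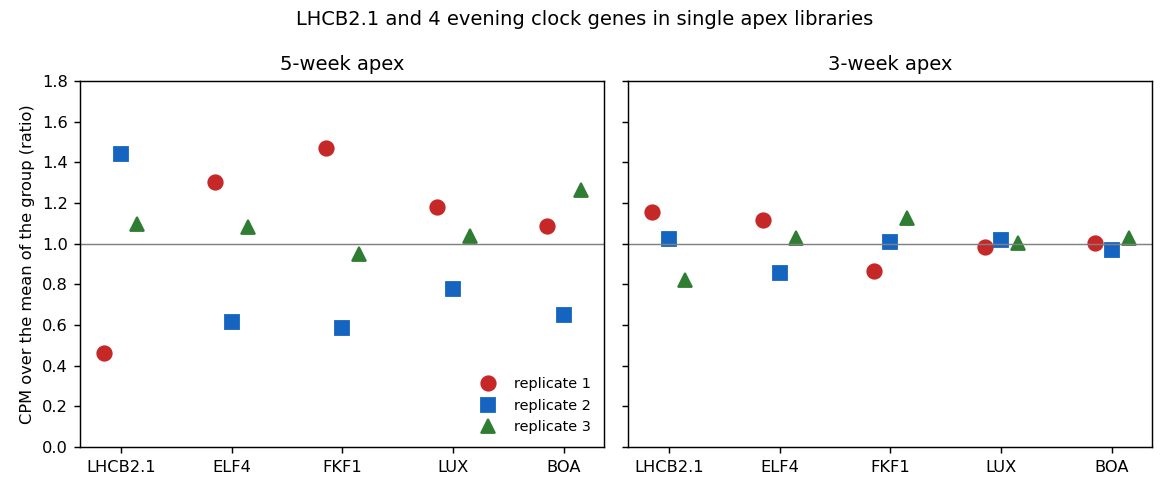
CPM of LHCB2.1 and of the evening clock genes ELF4, FKF1, LUX and BOA in each library, as a ratio to the mean of its group, at the 5-week apex and the 3-week apex; colour and symbol give the replicate. At 5 weeks replicate 2 is the highest for LHCB2.1, at 1.44, and the lowest for each clock gene, between 0.583 and 0.778.

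Among 972 tested genes with an Arabidopsis code in the deposited tables, likeness was ranked by Pearson's r of log2 CPM over the 9 libraries. The 3 most alike to CA1 were TGG2, AT5G59080 and GLDP2, each with r = 0.996. Those most alike to CA2 were LTP5 (0.997), PIFI (0.997) and AT4G17245 (0.996), and those to CAT2 were OPT1 (0.995), BCAT4 (0.994) and AT3G60290 (0.994). LHCB2.1 was most like AT5G59670 (0.992), PHOT1 (0.991) and AT5G67390 (0.989). The distance of leaf from apex sets most of these values. With group means taken off, MYB29, a regulator of aliphatic glucosinolate synthesis, came top for both CA1 (r = 0.954) and CA2 (0.982), followed in both by KIN3 (0.919 and 0.939). The third was AT1G12010 for CA1 (0.912) and ACS4 for CA2 (0.916). For CAT2 they were AT3G60290 (0.967), NIA1 (0.942) and MYR1 (0.939), on counts that are 0 or below 5 in 5 apex libraries. For LHCB2.1 they were the clock-related gene LNK4 (0.988), bZIP1 (0.982) and the B-box gene BBX28 (0.959). Their listings by the authors differ: LNK4 is listed lower at both apex ages, bZIP1 higher at the 3-week apex, and BBX28 lower at the 3-week apex and higher in the leaf, while LHCB2.1 is listed lower at the 5-week apex. All these values are descriptions over 9 libraries.

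Of 150 genes in 7 lists for photosynthesis, photorespiration and antioxidant enzymes, 8 (5.33%) had an entry in the authors' tables, the 4 genes above, which are in the lists by choice, and 4 more. Of all counted entries 4.35% are in the tables. No comparison is drawn from these shares, since the 4 genes were chosen from the tables. The lists were also matched by Arabidopsis code, which only 1079 of the 1487 genes in the tables carry. No gene of the Calvin cycle list (24 genes) or the photosystem list (27) had an entry in the tables. The other codes are paired with no Arabis gene in the tables and were not analysed here. In the authors' deposited table all 4 further genes were listed in the leaf, 3 higher and 1 lower in the mutant. Leaf entries made up 1.16% of all counted entries for higher and 2.34% for lower.

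GLDP2, a P-protein of the glycine decarboxylase complex in photorespiration, is given by the authors' deposited table at 0.368 times the control (adjusted p of 1.44e-12). Its mutant level was 262, 264 and 250 CPM in the leaf and 43.2, 45.2 and 49.2 CPM at the 5-week apex. It was thus higher in the leaf, as CAT2 was, but over a far smaller range (log2 fold change 2.50, SE 0.07; edgeR adjusted p = 7.38e-15). NYC1, a chlorophyll b reductase that acts in chlorophyll breakdown, and PORA, a light-dependent enzyme of chlorophyll synthesis, stand in the authors' deposited table at 2.65 and 2.08 times the control. NYC1 was steady within groups, at 114 ± 2.06 CPM in the leaf and 36.4 ± 1.23 CPM at the 5-week apex (SD, n = 3 each). PORA had 344, 349 and 496 CPM in the leaf, with replicate 3 apart from the others, and 138, 181 and 179 CPM at the 5-week apex. CSD1, a cytosolic copper/zinc superoxide dismutase that forms hydrogen peroxide from superoxide, stands in the authors' deposited table at 2.89 times the control. Unlike the 4 genes it was lower in the leaf than at the 5-week apex, at 243 ± 22 against 392 ± 26.6 CPM (SD, n = 3 each; log2 fold change -0.69, SE 0.08; edgeR adjusted p = 4.81e-07). With total counts as the only scaling, the median of all tested genes moved to -0.93 in this comparison.

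CA1 acts in guard cells as well as in mesophyll, and 2 of the 6 guard cell and stomatal lineage markers looked for were paired with an Arabis gene. TMM, a receptor of the stomatal lineage, had 2.76, 1.91 and 6.25 CPM in the leaf, 9.99, 7.14 and 11.03 CPM at the 5-week apex and 17.6, 15.8 and 18.8 CPM at the 3-week apex. The guard cell potassium channel gene KAT1 had 3.76, 3.29 and 2.57 CPM in the leaf, 3.42, 4.07 and 3.77 CPM at the 5-week apex and 2.54, 3.68 and 1.93 CPM at the 3-week apex. TMM was lower in the leaf than at the 5-week apex (log2 fold change -1.375, SE 0.28; edgeR adjusted p = 2.71e-04). For KAT1 no such difference passed the test (-0.225, SE 0.25; edgeR adjusted p = 0.422). Both could be paired only through the leaf entries of the authors' deposited table, TMM at 6.33 and KAT1 at 0.378 times the control. The other 4 markers were not analysed here, and the part of guard cells in the CA1 values was not tested.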

How the data were processed

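Polyadenylated RNA of the 9 mutant libraries was sequenced with a directional kit as single reads of 100 bases, per the labels' protocols. Counts per gene are whole reads as deposited by the authors. Per the submitters' processing notes STAR, HTSeq 0.5.4p1, DESeq and DESeq2 were used, with no role given; no genome build or annotation is named in them. The authors' tables give a fold (the ratio of mutant mean to control mean), its log2, an adjusted p-value and the mutant mean as a signal of normalised counts, all as deposited. The 6 control mean columns were left aside. Reads in no gene or in several made up 7.94% to 16.3% and 2.78% to 3.37% per library and were left out.

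Counts were tested in edgeR 4.0.16 (R 4.3.3) after TMM scaling and filterByExpr, by the quasi-likelihood test of 1 model with 3 groups, with Benjamini-Hochberg adjustment over 20633 genes at 0.05. Each SE was derived from the estimate and its F statistic. Alternatives were DESeq2 1.42.0, limma 3.58.1 with voom, other scalings, no filter, fewer groups, a replicate block and leaving out each library. The pipeline was tested on simulated data. No 2 libraries of a group agreed within counting noise (chi-square per degree of freedom from 1.66 to 10.7). Named genes were the 4 genes, genes of the lists found in the authors' tables and the 3 genes most alike to each by 2 measures, with logs taken at a prior of 3 counts. The 4 genes and the lists were chosen with earlier results of these data known, and the clock genes after their values were seen. Figures were drawn with matplotlib 3.10.9.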

Additional observations from a re-analysis of the deposited data

How the results depend on the processing

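Of 159 fold changes of the 4 genes recomputed under the alternatives, 157 kept their direction and their side of the threshold, and the exceptions were both LHCB2.1 between the apex ages. Without single libraries that value ran from -0.011 (without 5-week apex replicate 2) to 0.69 (without 5-week apex replicate 1, edgeR adjusted p = 2.65e-04), and under the other alternatives from 0.21 to 0.46. The scaled CAT2 fold over the control ran from 0.720 (without 3-week apex replicate 1) to 6.31. The value of 0.720 is below 1 but rests on 2 and 3 counts, too few to read a direction from. For CAT2 between the apex ages, the call kept without 3-week apex replicate 1 rested on 0 against 5 counts. CAT2 could not be tested with the apex groups alone, where the filter removed it. Without the filter, an alternative chosen after seeing the data, its adjusted p there was 0.00428. Counts of called genes stayed within 1.5 times of 16316 for leaf over 5-week apex, 8265 between the apex ages and 15451 for leaf over 3-week apex. Scaling by total counts alone moved the higher share of the called genes (not of all tested genes) to 22.04%, 66.2% and 22.8%, against 46.9%, 47.6% and 48.9% with TMM, and the median of all genes to -0.93, 0.12 and -0.76. It gave leaf means of 6058, 709.5, 470.6 and 5369 CPM for CA1, CA2, CAT2 and LHCB2.1. With an authors' adjusted p of at most 0.01, 3 of the 4 genes stay listed. With the replicate number as a block 16114, 7681 and 15242 genes were called and no call of the 4 genes changed. Same-numbered libraries did not deviate together (correlations from -0.08 to 0.01 over 9 pairs), so the numbers were not taken as pairs. Depth limits the 5-week apex values of CA1, CA2 and CAT2 to 15 counts or fewer per library.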

Other observations

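Outside the lists, and chosen after their values were seen, 3 more genes tied to plastids or to chlorophyll binding had entries in the authors' tables. RbcX1, a chaperone for Rubisco assembly, was listed higher in the mutant at both apex ages, and the authors' deposited table gives 3.73 times the control at 5 weeks and 3.09 times at 3 weeks. Its mutant level was 2.965, 0.734 and 1.59 CPM at the 5-week apex and 3.26, 4.09 and 5.39 CPM at the 3-week apex, so the 3-week order of libraries differed from that of CA1. The leaf had 22.6, 22.5 and 19.9 CPM, a log2 fold change of 3.61 (SE 0.27) over the 5-week apex (edgeR adjusted p = 2.51e-09). ATWSCP, a water-soluble chlorophyll-binding protein gene, stands in the authors' deposited table at 2.33 times the control in the leaf. It averaged 109 ± 6.66 CPM in the mutant leaf and 1.303 ± 1.03 CPM at the 5-week apex (SD, n = 3 each), where replicate 1 was the highest at 2.45 CPM. OEP16-1, a protein of the outer plastid envelope, stands in the authors' deposited table at 2.13 times the control in the leaf. It had 69.4, 59.3 and 50.45 CPM in the mutant leaf libraries.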
